A study of Mus musculus with 4 samples.

Results

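The insulin-like growth factor (IGF) axis was examined in ID8G and GO2 mouse ovarian cancer cells through 10 genes, which encode 2 ligands (Igf1 and Igf2), 2 receptors (Igf1r and Igf2r) and 6 binding proteins (Igfbp2 to Igfbp7). The genes were chosen by family membership, and a probe was assigned to a gene when the RefSeq accession printed for that probe carried the gene's symbol. This gave 13 probes of 56605 on the array, 1 or 2 per gene. Of them, 10 probes for 8 genes had signal that could be tested, with every array of both lines well above background.

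ID8G cells are ID8 cells, a C57BL/6 mouse ovarian cancer line, that express GFP. GO2 cells descend from ID8G cells. ID8G cells were injected into the peritoneal cavity of syngeneic mice, CD45-negative, GFP-positive cells were sorted from omental tumors 3 to 4 months later and cultured, and the sorted cells were injected and recovered from omental tumors once more. GO2 is therefore 1 selected line, and no other selected line was analysed here. Both lines carry GFP. The paper gives a medium with serum, insulin, transferrin and selenite for ID8 cells. It names no medium for GO2 cells, so a shared supply of insulin is not established. Each line was measured on 2 one-color arrays. The labels do not say whether the 2 arrays of a line came from separate cultures, and the p-values then measure only the spread between arrays, which may be technical. The study compared the lines to find genes related to peritoneal dissemination.

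IGF1 and IGF2 are secreted growth factors that activate the receptor tyrosine kinase IGF1R, which signals through insulin receptor substrates to PI3K and AKT. IGF2R takes up IGF2 for degradation and does not pass on a growth signal of this kind. IGF-binding proteins (IGFBPs) hold IGFs in the extracellular fluid, where they can carry them or keep them from the receptor, and proteases release the IGFs by cutting the IGFBPs. Several IGFBPs also bind matrix or cell-surface proteins. In ovarian cancer the axis has been studied mainly as a growth and survival pathway.

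In GO2 cells 2 binding protein genes rose and 1 fell. Igfbp2 was 89.0-fold and Igfbp3 23.7-fold higher than in ID8G cells, and Igfbp4 was 2.29-fold lower. With another background correction (normexp) the Igfbp2 fold was 45.7 and the Igfbp3 fold 18.2. Igf1 and Igfbp6 lay above and Igfbp7 below their ID8G levels by less than 2-fold. Igf1r differed by 1.09-fold and Igf2r by 1.05-fold at their brightest probes, and neither was called. Igf2 and Igfbp5 were not well above background on any array. A gene was called changed at a limma adjusted p below 0.05 and a difference of at least 2-fold. By this rule 4.5% of the 28368 probes tested were called higher in GO2 cells and 3.34% lower, 7.84% in all. With 1 probe per gene, the one with the highest signal, 5.98% of 13215 genes were called higher and 3.94% lower, 9.92% in all.

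The 3 genes that were called have the following sequences in the 250 bases before their RefSeq start site (GRCm38.p6). They are shown because these genes carry the differences reported here. Capitals mark matches to any of 5 motifs, searched on both strands of these bases and the 50 that follow, which are the TATA box TATAAA, the GC box GGGCGG, the AP-1 motif TGANTCA, the FOXO element GTAAACA and the E-box CACGTG.
Igfbp2: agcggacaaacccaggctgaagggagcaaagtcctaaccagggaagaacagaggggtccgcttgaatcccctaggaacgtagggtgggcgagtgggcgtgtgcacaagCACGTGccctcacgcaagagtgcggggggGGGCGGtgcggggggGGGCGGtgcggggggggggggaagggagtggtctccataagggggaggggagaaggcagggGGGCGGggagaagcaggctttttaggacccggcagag
Igfbp3: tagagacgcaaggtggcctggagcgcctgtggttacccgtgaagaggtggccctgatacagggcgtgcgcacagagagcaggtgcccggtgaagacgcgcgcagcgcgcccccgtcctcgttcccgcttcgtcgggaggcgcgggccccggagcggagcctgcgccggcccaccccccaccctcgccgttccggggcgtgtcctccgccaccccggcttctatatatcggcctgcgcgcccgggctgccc
Igfbp4: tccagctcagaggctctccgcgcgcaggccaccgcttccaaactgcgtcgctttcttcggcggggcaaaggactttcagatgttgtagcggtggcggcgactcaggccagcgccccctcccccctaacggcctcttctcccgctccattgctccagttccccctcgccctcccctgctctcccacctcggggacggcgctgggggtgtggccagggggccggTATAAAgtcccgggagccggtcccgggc
The Igfbp2 sequence is chr1:72824230-72824479 on the plus strand, the Igfbp3 sequence is chr11:7213924-7214173 on the minus strand, and the Igfbp4 sequence is chr11:99040994-99041243 on the plus strand. RefSeq gives Igfbp2 a second start site downstream, whose sequence is not printed and held an AP-1 motif at -39 and no match to the other 4 motifs.

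Counted from the start site, the Igfbp2 promoter held GC boxes with their first base at -113, -98 and -37 and an E-box at -142. The Igfbp4 promoter held a TATA box at -28. The Igfbp3 promoter held none of the 5 strings of letters. Of 32851 mouse promoters searched over the same 300 bases, 35.7% held a GC box, 7.15% an E-box and 13.6% this TATA box. An AP-1 motif was found in 7.81% and a FOXO element in 3.65% of them. G and C made up 67.2% of the Igfbp2 sequence, 73.2% of the Igfbp3 sequence and 69.2% of the Igfbp4 sequence, all above the upper quartile of 61.2% over all promoters. Igfbp3, with 32 CpG dinucleotides, and Igfbp4, with 22, were above the upper quartile of 16, and Igfbp2, with 14, was not. These matches describe the letters only, and binding was not measured.

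Levels are log2 intensities relative to the 75th percentile of each array, which is set to 0, and differences are GO2 minus ID8G. A level can be compared between arrays for 1 probe but not between probes. Over the 28368 probes tested the median difference was -0.02, and the median of its absolute size was 0.20. Scaling to the spike-in controls in place of the percentile lowered all differences together, to a median of -0.23.

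**Figure D1:**
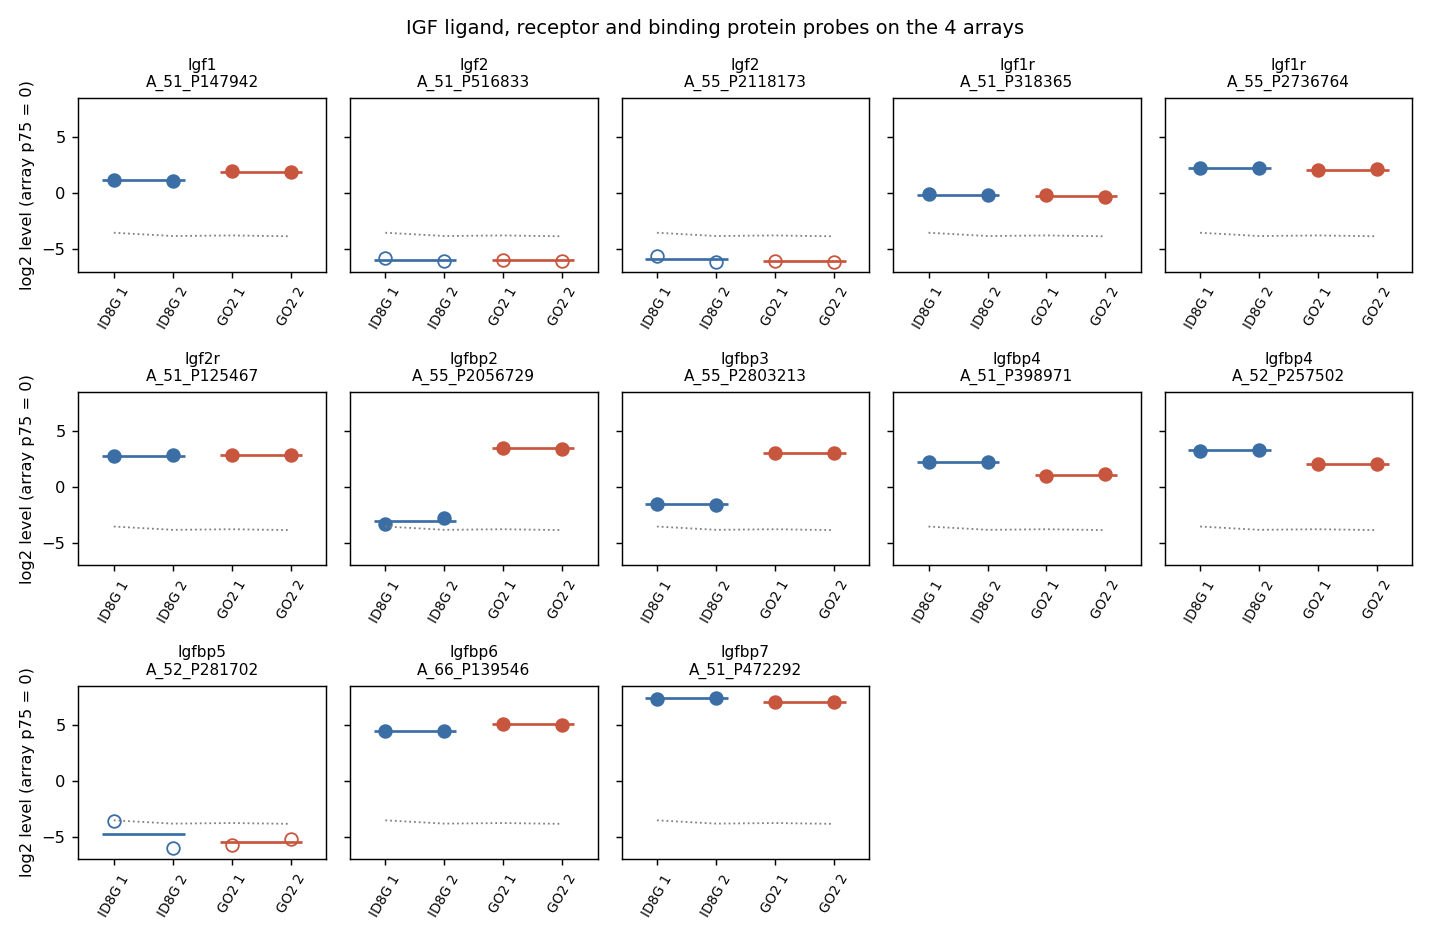
Log2 level of each of the 13 probes (vertical axis, array 75th percentile at 0) on the 2 ID8G arrays (blue) and the 2 GO2 arrays (red), with bars at the mean of each line. Filled points are well above background, open points are not, and the dotted line is the lowest level called well above background on that array. Igfbp2 and Igfbp3 stand apart between the lines, and both Igf2 probes and the Igfbp5 probe have open points on every array.

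Igf1, the ligand detected in these cells, had log2 levels of 1.18 and 1.11 in ID8G cells and 1.99 and 1.85 in GO2 cells. Both GO2 arrays were above both ID8G arrays. The difference was 0.78 ± 0.07 (SE), or 1.71-fold, with an adjusted p of 0.00387 (limma). Its 95% interval, 0.58 to 0.97, ended below the 2-fold threshold, and Igf1 was not called. With spike-in scaling the difference was 0.57.

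Igf2, the second ligand and an imprinted gene expressed mainly before birth, gave no signal above background. Its probe A_51_P516833 read -5.79 and -6.08 in ID8G cells and -5.96 and -6.05 in GO2 cells. Its probe A_55_P2118173 read -5.58 and -6.11 in ID8G cells and -6.04 and -6.11 in GO2 cells. The lowest level that the scanner software called well above background lay between -3.85 and -3.53 on the 4 arrays. All 8 readings were under it, so neither a level nor a direction can be given.

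Igf1r, the receptor for both ligands, has 2 probes. A_55_P2736764 read 2.22 and 2.25 in ID8G cells and 2.11 and 2.12 in GO2 cells. The difference was -0.12 ± 0.05 (SE), with a 95% interval of -0.26 to 0.01 and an adjusted p of 0.130 (limma). The probe A_51_P318365 read -0.10 and -0.15 in ID8G cells and -0.19 and -0.31 in GO2 cells, a difference of -0.13 ± 0.07 (SE) with an interval of -0.31 to 0.06. The probes gave like differences, and neither interval reached 2-fold in either direction. With spike-in scaling both differences were -0.33, and neither was called.

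Igf2r, also known as the cation-independent mannose 6-phosphate receptor, read 2.77 and 2.82 in ID8G cells and 2.86 and 2.86 in GO2 cells. The difference of 0.07 ± 0.05 (SE) had an interval of -0.08 to 0.21 and an adjusted p of 0.380 (limma), and it turned to -0.14 with spike-in scaling.

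Igfbp2, which binds both IGFs and has an integrin-binding motif, read -3.29 and -2.78 in ID8G cells and 3.48 and 3.41 in GO2 cells. The ID8G readings were near the lower end of the measured range, and both GO2 readings were far above them. The difference was 6.48 ± 0.19 (SE), with a 95% interval of 5.97 to 6.99 and an adjusted p of 0.000301 (limma). It was number 17 by size among the 28368 differences in the direction of GO2 cells. Its size depended on the background correction. With normexp correction, which adds an offset of 50 before the logarithm, the difference was 5.51, and it stayed called.

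Igfbp3, the main IGF carrier of the blood and also a protein with IGF-independent effects on cell growth, read -1.48 and -1.60 in ID8G cells and 3.04 and 3.01 in GO2 cells. The readings within a line were closer to each other than those of Igfbp2. The difference was 4.57 ± 0.07 (SE), with an interval of 4.38 to 4.75 and an adjusted p of 0.000182 (limma). It was number 67 by size among the same probes.

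Igfbp4, a binding protein known mainly for holding IGFs away from the receptor until it is cut by the protease PAPP-A, was the member that fell. Its probe A_52_P257502 read 3.25 and 3.26 in ID8G cells and 2.03 and 2.09 in GO2 cells. Its probe A_51_P398971 read 2.26 and 2.25 in ID8G cells and 0.98 and 1.14 in GO2 cells. The probes differed by -1.19 ± 0.05 and -1.19 ± 0.07 (SE), with adjusted p-values of 0.000684 and 0.00145 (limma), so that both were called. The interval of the first, -1.34 to -1.04, lay just beyond 2-fold, and that of the second, -1.39 to -0.98, included it. When limma tested against a minimum of 2-fold (treat), Igfbp4 was not called, with adjusted p-values of 0.217 and 0.534, and Igfbp2 and Igfbp3 were.

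Igfbp5, a binding protein with affinity for matrix, was not well above background on any array, with readings of -3.59 and -5.97 in ID8G cells and -5.78 and -5.22 in GO2 cells. The first reading lay just under the lowest level called well above background on its array, -3.53, so neither a level nor a direction can be given.

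Igfbp6, which prefers IGF2 over IGF1, read 4.46 and 4.46 in ID8G cells and 5.10 and 5.01 in GO2 cells. The difference of 0.60 ± 0.06 (SE), or 1.51-fold, had an adjusted p of 0.00424 (limma) and an interval of 0.44 to 0.76, so it was not called. Igfbp7, a secreted relative that binds IGFs weakly, read 7.31 and 7.43 in ID8G cells and 7.03 and 7.01 in GO2 cells. The difference of -0.34 ± 0.06 (SE) had an adjusted p of 0.0223 (limma) and was not called. Its adjusted p was above 0.05 without ID8G replicate 2 (0.0798), without GO2 replicate 1 (0.0831) and without GO2 replicate 2 (0.0930), with quantile normalization (0.0582) and with no filter on dim probes (0.134), and also under treat and the t-test of the methods.

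Without the size threshold, 7 of the 10 tested probes of the family had an adjusted p below 0.05 (limma), where the share over all probes tested was 35.9%. The ID8G and GO2 arrays did not overlap at all 10 probes, and at 73.6% of all probes tested they did not overlap either. Each of the 10 gave a two-sided exact permutation p of 0.333, the smallest that 2 arrays per line allow. The calls therefore rest on the variance that limma pools over all probes.

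**Figure D2:**
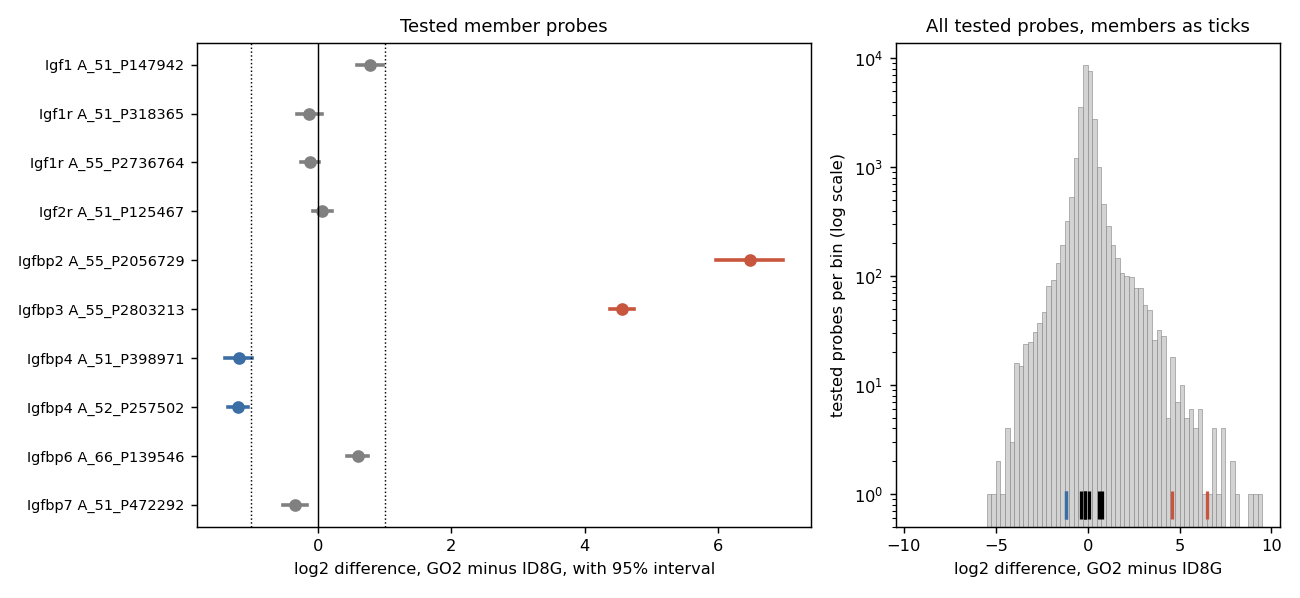
Left, GO2 minus ID8G log2 difference of each tested probe of the family with its 95% interval from limma, called probes in red (higher) or blue (lower) and dotted lines at 2-fold. Right, number of tested probes per bin of difference (log scale), with the family marked by ticks, where Igfbp2 and Igfbp3 lie in the upper tail, Igfbp4 lies on the lower side at -1.19 and the other tested members lie nearer to 0.

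The genes that act next to the family were described from 6 lists. The IGF family outside the 10 members had 12 genes, of which 4 were tested and none was called, with 1 of the 4 at an adjusted p below 0.05 and 2 at an unadjusted p below 0.05 (limma). The brightest were Igf2bp1 and Igf2bp2, which encode RNA-binding proteins named for the Igf2 transcript. They differed by -0.57 ± 0.06 (SE, adjusted p = 0.00489) and 0.28 ± 0.07 (SE, adjusted p = 0.0505). Insr, the insulin receptor, is given although the rule for naming genes did not select it. It read -3.06 and -3.05 in ID8G cells and -4.05 and -2.45 in GO2 cells, where 1 of the 2 arrays was well above background. Igfbp1, Igfbpl1, Igfals, Ins1, Ins2, H19 and Igf2os were not well above background on any array, and Igf2bp3 was so on 1 array of each line.

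Of 14 genes for IGFBP proteases and their inhibitors, 10 were tested, 4 were called higher in GO2 cells and none lower, where 5.98% of all genes tested were called higher and 3.94% lower. These shares are the background for the lists that follow as well. The median difference of the 10 was 0.58, where the median over all 13215 genes was -0.00066. Htra3, a secreted serine protease, read -2.26 and -2.66 in ID8G cells and rose by 3.19 ± 0.16 (SE, adjusted p = 0.000815), although its second probe differed by 0.72 and was not called. Timp3, a matrix-bound inhibitor of metalloproteases, rose by 2.81 ± 0.08 (SE, adjusted p = 0.000286) and also at its second probe. Stc2, which encodes an inhibitor of PAPP-A, was not well above background in ID8G cells and was at least 3.80-fold higher in GO2 cells. Such a lower bound sets the GO2 mean against the lowest level called well above background on the ID8G arrays or the reading itself, whichever is higher. Stc2 was tested through its GO2 arrays alone, so its call sets signal against background readings, and no p-value is given. The fourth was Adamts1, a metalloprotease, at 1.05, which lost its call with normexp correction (0.97) and with spike-in scaling (0.84). Pappa, which encodes PAPP-A, differed by 0.54 and was not called. Normexp correction and spike-in scaling each left 3 genes of the list called higher, and spike-in scaling made 1 call lower.

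Of 19 receptor adaptors 14 were tested, 2 were called higher (5.98% of all genes) and none lower (3.94%). Irs1, a docking protein of the insulin and IGF1 receptors, read 0.15 and 0.07 in ID8G cells and 2.15 and 2.20 in GO2 cells. The GO2 arrays were far above the ID8G arrays, with a difference of 2.06 ± 0.06 (SE, adjusted p = 0.000307). Grb14, an adaptor that restrains the insulin receptor, rose by 1.38 ± 0.07 (SE, adjusted p = 0.00100). Irs2, the related docking protein, differed by 0.01. The median difference of the 14 was 0.18.

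Of 33 genes of the PI3K, AKT, FOXO and mTOR pathway 32 were tested, with 3 called higher, 2 called lower and a median difference of 0.01, and the 5 calls stand beside 9.92% of all genes. Sesn3, a sestrin and known FOXO target that restrains mTOR complex signaling, fell by 1.38 ± 0.06 on the log2 scale (SE, adjusted p = 0.000726). Pik3r1, the main regulatory subunit of PI3K, rose by 1.27 ± 0.07 (SE, adjusted p = 0.00118), and Pik3cd, a catalytic subunit, by 1.20 ± 0.05 (SE, adjusted p = 0.000589). With normexp correction or spike-in scaling 1 gene, Pik3r1, was called higher in place of 3, and Pik3cd, at 0.81 with normexp and 0.996 with spike-in scaling, lost its call.

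The CCN family, matrix proteins whose first domain resembles that of IGFBPs, had 6 genes, 4 tested, 2 called higher (5.98% of all genes) and none lower. Ccn5 was not well above background in ID8G cells and at least 1.75-fold higher in GO2 cells, a bound under the 2-fold threshold. It was tested through its GO2 arrays alone, so its call sets signal against background readings, and its size beyond the bound is not known. Ccn1 rose by 1.98 ± 0.06 (SE, adjusted p = 0.000317). Ccn2, at -0.87, and Ccn4, at 0.73, were not called, though spike-in scaling made 1 gene of the family lower, and normexp correction left 1 higher, with Ccn5 at 0.89 and not called.

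Of 14 surface and matrix proteins reported to bind IGFBPs 11 were tested, 2 were called higher and 2 lower, beside 5.98% and 3.94% of all genes. Fn1, fibronectin, rose by 1.55 ± 0.07 (SE, adjusted p = 0.000677). Ptprb, a receptor tyrosine phosphatase, fell by 1.26 ± 0.08 (SE, adjusted p = 0.00132). Itgb3, the integrin beta chain that pairs with Itgav, fell by 1.19 ± 0.06 (SE, adjusted p = 0.000924), although its second probe, at -0.78, was not called. With spike-in scaling 1 gene was called higher and 3 lower, and with normexp correction 1 each way, with Ptprb at -0.97 and not called.

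**Figure D3:**
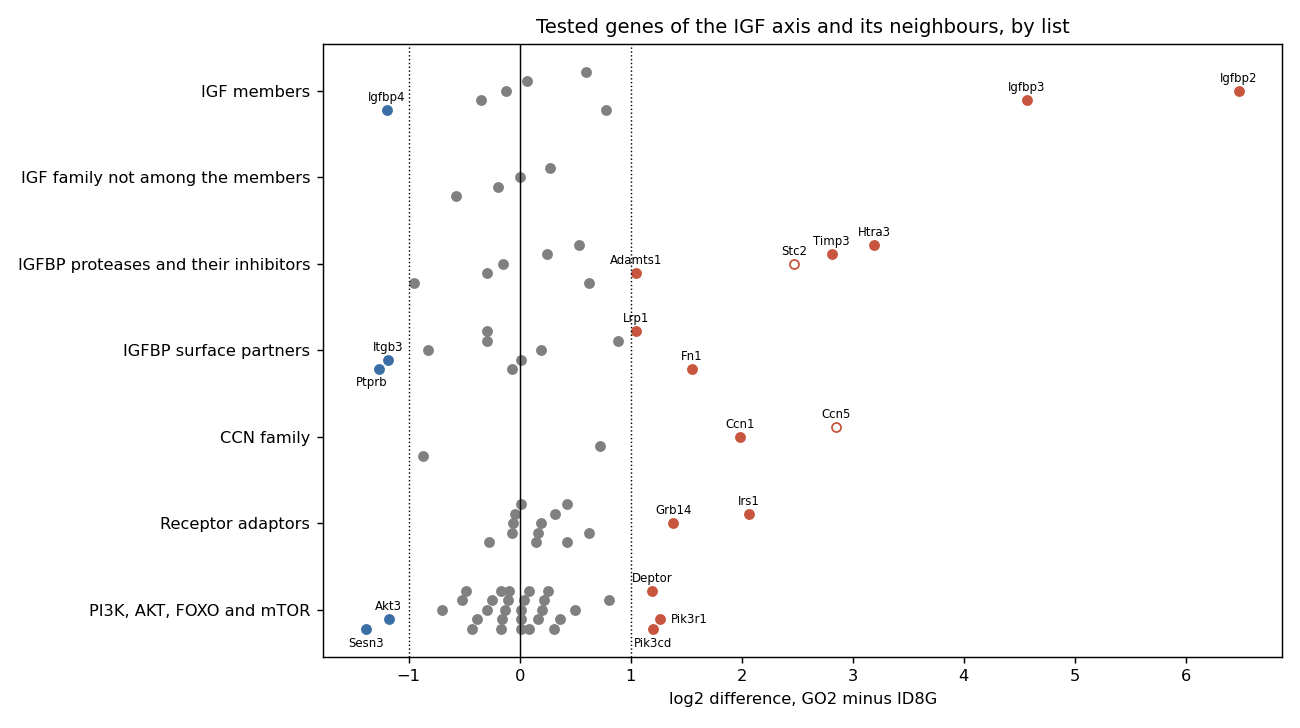
GO2 minus ID8G log2 difference (horizontal axis) of every tested gene of the IGF family and of 6 neighboring lists, 1 point per gene from its brightest tested probe. Red points are called higher and blue points lower in GO2 cells, open points mark genes not well above background in 1 line, whose difference has only a lower bound, and dotted lines mark 2-fold. Igfbp2 and Igfbp3 lie farther from 0 than any other gene shown.

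Markers of other cell types were read on the same arrays. In bulk RNA fewer cells of a type and less RNA per cell cannot be told apart. Of 10 fibroblast markers 6 were tested and 5 rose in GO2 cells, with Col1a2 at 7.49, Col1a1 at 4.69, Col3a1 at 4.20 and Pdgfra at 3.70 on the log2 scale and Pdgfrb at least 2.42-fold higher. Pdgfrb was not well above background in ID8G cells and was tested through its GO2 arrays alone. The sixth, Dcn, differed by -0.63 with an adjusted p of 0.00309 (limma), and it was not called because this is under 2-fold. Lum, Thy1, Fap and Postn were not well above background on any array. The summed level of the list, in units of the array's 75th percentile, was 68.6 to 71.4 in ID8G cells and 150.2 to 150.6 in GO2 cells. In ID8G cells Dcn, with a mean of 6.04, made up most of this sum, and in GO2 cells its mean was 5.41. The sum thus differs in its make-up between the lines. This and the sums below add intensities of different probes, so a share of a sum is signal and not an amount of RNA. The fibroblast sum moved in the same direction as Igfbp2 and Igfbp3, and the part of fibroblasts in these results was not tested. GO2 cells were sorted as CD45-negative, GFP-positive cells and then cultured, and the purity of the sort was not tested here.

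The macrophage markers Ptprc, Adgre1, Lyz2 and Mrc1 gave no signal well above background, and the 4 others were tested without a call. Cd14 differed by -0.69 (adjusted p = 0.0021, limma) and by -0.67 at its second probe, both under 2-fold. Csf1r, Cd68 and Itgam differed by 0.22, 0.19 and -0.13, with adjusted p-values of 0.126, 0.155 and 0.311 (limma). The summed macrophage level was 22.3 to 25.1 in ID8G cells and 21.7 to 21.8 in GO2 cells. Most of this sum was 1 probe of Itgam, with a mean of 4.29 in ID8G cells and 4.16 in GO2 cells. A second Itgam probe was well above background on 0 ID8G arrays and 1 GO2 array. No lymphocyte marker of 7 and no endothelial marker of 6 was called, with 1 tested in each list. Of 6 adipocyte markers 3 were tested and 1 was called, Fabp4, which fell at least 6.28-fold, or at least 1.79-fold by its second probe. Lep differed by -0.04 and Pparg by -0.42 (adjusted p = 0.0151 for Pparg, limma), both under 2-fold, and neither was called. Adipoq and Plin1 were not well above background on any array, and Cidec was so on 1 GO2 array. ID8 cells derive from ovarian surface epithelium. Of 6 epithelial markers, Krt8, Krt18, Krt19 and Cdh1 gave signal well above background on every array, and Epcam and Krt7 on none. Cdh1 differed by -0.34, Krt8 by -0.55 and Krt18 by -0.81, and none of these was called. Krt8 and Krt18 had adjusted p-values of 0.00438 and 0.00162 (limma) and missed only the 2-fold threshold, and that of Cdh1 was 0.06. Krt19 fell by 1.65 on the log2 scale, and the summed epithelial level was 543 to 560.9 in ID8G cells and 284 to 285.5 in GO2 cells. The mesothelial and ovarian surface markers Wt1 and Msln were well above background in both lines and differed by -0.10 and -0.82, and Upk3b rose by 1.08. Msln had an adjusted p of 0.00176 (limma) and missed only the 2-fold threshold. Gpm6a and Lrrn4 differed by 0.01 and -0.04 and were not called. With spike-in scaling 0 mesothelial markers were called higher and 1 lower, so the Upk3b call was lost, and 2 epithelial markers were called lower. The part of these differences in the IGF results was not tested.

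The genes whose 4 readings, each centered on its own mean, lay nearest to those of a called member were found by Euclidean distance over the 4 arrays. For Igfbp2 they were Prrx1, Cxcl1 and Fbn1. Cxcl1 was measured in both lines and lay at a distance of 0.514. Prrx1 and Fbn1 were not well above background in ID8G cells and were at least 34.0-fold and at least 20.1-fold higher in GO2 cells. For Igfbp3 they were Col2a1, Man1c1 and Plaat3, at least 19.3-fold, 5.44-fold and 4.83-fold higher in GO2 cells and none of them well above background in ID8G cells. The ID8G readings of these 5 genes are background, so their distances and their rank as nearest are not determined. For Igfbp4 they were Vegfc, Etv4 and Tspan8, at 0.041, 0.044 and 0.048, with differences of -1.17, -1.23 and -1.18. With 2 lines such a distance reflects mainly the size of the difference between them.

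**Figure D4:**
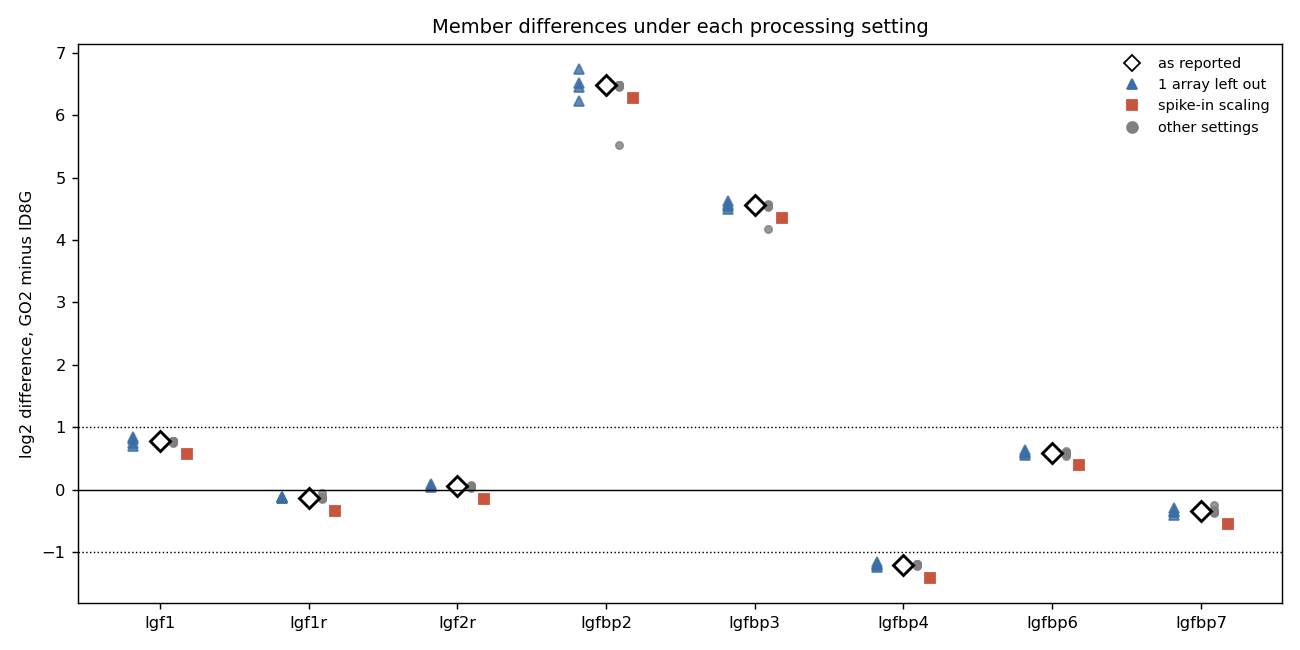
GO2 minus ID8G log2 difference of each tested member (brightest probe) as reported (open diamonds), with 1 array left out (blue triangles), with spike-in scaling (red squares) and under the other processing settings (gray points). Igfbp2 ranged from 5.51 to 6.73, Igfbp3 from 4.18 to 4.63 and Igfbp4 from -1.40 to -1.16, and the low gray points of Igfbp2 and Igfbp3 are from normexp correction.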

How the data were processed

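Total RNA of ID8G and GO2 cells was labeled with Cy3 and hybridized to Agilent mouse arrays, 2 per line, on 1 slide read in 1 scan, so no batch could be separated from array position. The authors deposited spot intensities from Feature Extraction 11.5.1.1, with the background subtracted and no normalization between arrays, and marks for outlier, saturated and well-above-background spots. The deposited log2 value table has the same scale, set to the 75th percentile of each array, with each probe centered on its median (r of at least 0.99998 with the values used here), has column medians of 0.104, -0.048, 0.0381 and -0.0486, and served as 1 alternative. The table has 0 per-sample columns that were not used.

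Outlier spots were left out, spots of a probe averaged and the 75th percentile of the 56605 non-control probes subtracted on the log2 scale. The percentile was 627.2 to 675.1 intensity units. Between 27502 and 28841 probes were well above background per array, and 0 spots were saturated. The number of arrays limits the precision. Probes for which both arrays of either line were well above background were fitted on cell line alone with limma 3.58.1 (lmFit and eBayes, R 4.3.3), and p-values were adjusted by Benjamini-Hochberg over 28368 probes. Symbols came from RefSeq accessions (32994 probes, 58.3%) through a table for GRCm38.p6. The arrays were designed on mm9. Promoters came from RefSeq, GRCm38.p6, where all 10 members matched. Figures were drawn with matplotlib 3.10.9. As a check of the code, the fit was run on values simulated from its own model with known changes added. Such a simulation does not bear on background or on replication.

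The members, lists and alternatives were chosen with earlier results of these data known. Named were all members, from each pathway list the called genes, at most 3 by size, or the 2 brightest where fewer than 2 were called, and the 3 genes nearest to each called member. Other genes were named after their values were seen.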

Additional observations from a re-analysis of the deposited data

How the results depend on the processing

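The values of the members were recomputed under 18 settings. Of 178 values 171 kept their direction and side of the threshold, 6 lost the call and 1 reversed. The reversal was Igf2r, at -0.14 with spike-in scaling. Settings that change only the filter, the floor, the test or the replicate block refit the same values for these probes. The differences, and so their directions, could not change there, and only the calls could. Igfbp2 and Igfbp3 lost their calls under the methods' t-test (Welch, 2 arrays a line, adjusted), which called 0 members and 0 probes higher and 0 members and 3 probes lower, where the unadjusted p with a 2-fold threshold gave 1001 probes higher and 728 lower, and 2 members higher and 1 lower. Igfbp4 lost its call under the same test and under treat, which called 0 members lower, 748 probes higher and 440 lower. Treat asks for a difference beyond 2-fold, and that of Igfbp4, at -1.19, lay close to this limit. Over all probes, 1277 were called higher and 947 lower. Normexp correction gave 818 and 517, spike-in scaling 1102 and 1434, and the filter for all 4 arrays, which tests fewer probes, 666 and 606. The cause of the shift with normexp was not tested, and spike-in scaling lowers all differences together. Leaving out 1 array leaves a line with 1 array, which is assumed to vary like the other line, and then there were 1230 to 1311 probes higher and 934 to 1010 lower, and 2 members higher and 1 lower each time. With the replicate block there were 1251 probes higher and 936 lower, and 2 members higher and 1 lower. The replicate numbers only name the arrays (r of deviations 0.0273), so the arrays were not treated as pairs. Signal over background limits Igf2, Igfbp5 and the size of Igfbp2. A match by gene name column and the slide as a block were not run, because the scanner files used here hold no such column and 1 slide.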

Other observations

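The genes on either side of the called members in RefSeq order were read after the members' values were known. Next to Igfbp4 on chromosome 11, Tns4, a focal adhesion protein, fell by 1.93 ± 0.07 on the log2 scale (SE, adjusted p = 0.000404, limma). Ccr7, a chemokine receptor gene beyond it, differed by -0.88 (adjusted p = 0.00829) and was not called. On the other side, Gjd3 differed by 0.28 and Top2a by -0.17. Next to Igfbp2 on chromosome 1, Rpl37a differed by 0.15 (adjusted p = 0.0876), and Igfbp5, Ankar and Tnp1 were not well above background on any array. Next to Igfbp3 on chromosome 11, Igfbp1 was not well above background on any array, and Tns3 differed by -0.11 (adjusted p = 0.246).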
